A study of Homo sapiens with 6 samples.

Results

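Solute carriers are membrane proteins that move nutrients, ions, metals and drugs across the plasma membrane and the membranes of organelles. The genes described here are every protein-coding gene of the deposited table whose symbol begins with SLC and a digit, or with SLCO. They were chosen by name and then sorted by main substrate. Of 134 rows so named, 11 were left out: 7 noncoding loci, 3 pseudogenes and 1 gene that the selection sets aside. This left 123 of the 6641 listed genes, from 39 families. SLC7A6OS entered by its name alone, since it is the neighbour of SLC7A6 on the opposite strand and no transporter, and SLCO1B3-SLCO1B7 is a readthrough of its neighbours.

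RNA sequencing was carried out on 3 libraries labelled HCC827 and 3 labelled HCC827_Er. HCC827 is an established human lung adenocarcinoma line with an activating EGFR mutation, and the series title speaks of a parental and a resistant line. The design text names histone crotonylation and resistance to EGFR kinase inhibitors as its question. The drug, its dose, whether it was present at harvest, and whether HCC827_Er is a clone or a population were not given in the sources used here. The labels give both groups as non-small cell lung cancer cells, while the protocol text speaks of tissue, and nothing says that the replicates were separate cultures. The p-values therefore measure only the spread between these libraries, which may be technical.

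Transporters of this group work by letting a substrate run down its gradient or by coupling it to sodium, protons or another solute. Some need a second protein to reach the membrane, as SLC7A5 needs the heavy chain SLC3A2 and the lactate carrier SLC16A3 needs basigin. In lung cancer cells they are known for glucose, lactate, amino acid and metal supply, and in alveolar cells SLC34A2 recovers phosphate from surfactant.

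All values are FPKM as deposited, fragment counts corrected for transcript length and for library size, so depth and counting error are unknown. Listed genes summed to 184633 to 224211 FPKM per library, and the solute carriers made up 1.22% to 1.46% of these sums. Libraries of the same line correlated with r between 0.991 and 0.994 across genes, which are not independent replicates. Of the lung epithelial markers in the table NKX2-1, SFTPB, NAPSA, EPCAM and CDH1 were called higher in HCC827_Er, while KRT8 averaged 1744 FPKM in HCC827 and 1025 in HCC827_Er (-0.77; not called, but -1.11 and called lower after median-ratio rescaling). The 2 listed leukocyte markers summed to 0.89 to 1.23 FPKM in HCC827 and 5.96 to 6.69 in HCC827_Er, and the 2 listed fibroblast markers to 2.12 to 3.09 and 9.33 to 11.5. Within the fibroblast pair COL1A1 averaged 0.75 and 10.1 FPKM and LUM 1.81 and 0.53, in opposite directions. The endothelial marker CDH5 was at 0 in the 3 HCC827 libraries and at 0.52 to 0.75 in HCC827_Er. These low levels moved with the line in the same libraries as every result below, and their part in the results was not tested.

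The promoters of 3 carriers that the results turn on are printed here because SLC3A2 and SLC7A5, partners in a single transporter, moved together, and because SLC16A3 is the lactate carrier of glycolytic cells. Each stretch runs from 150 bases before to 20 bases after a RefSeq transcription start on GRCh38.p14. They lie at chr11:62881549-62881718 (plus strand) for SLC3A2, chr16:87869488-87869657 (minus strand) for SLC7A5 and chr17:82228892-82229061 (plus strand) for SLC16A3. Capitals mark matches, on either strand, to the antioxidant response element core TGACNNNGC or to the hypoxia response element core ACGTG. All 4 genes searched, these and SLC2A1, were found in the RefSeq table. The window with the most matches was taken after the matches were seen, from 3 windows of SLC3A2 and 5 of SLC16A3.
SLC3A2: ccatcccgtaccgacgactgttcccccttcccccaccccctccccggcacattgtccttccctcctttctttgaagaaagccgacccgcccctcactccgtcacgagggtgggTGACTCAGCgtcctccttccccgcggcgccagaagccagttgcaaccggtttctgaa
SLC7A5: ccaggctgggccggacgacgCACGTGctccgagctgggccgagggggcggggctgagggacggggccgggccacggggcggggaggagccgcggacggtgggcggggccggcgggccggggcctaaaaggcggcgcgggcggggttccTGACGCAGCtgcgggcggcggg
SLC16A3: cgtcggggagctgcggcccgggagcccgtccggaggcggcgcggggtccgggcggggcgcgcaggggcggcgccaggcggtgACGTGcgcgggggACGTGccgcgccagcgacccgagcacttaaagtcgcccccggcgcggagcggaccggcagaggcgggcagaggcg

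In SLC3A2 the match TGACTCAGC began 37 bases before the start (position -37). In SLC7A5 TGACGCAGC began at -2, and a CACGTG held overlapping matches to ACGTG on both strands at -130 and -129. SLC16A3 had 2 matches to ACGTG, at -68 and -55. The window of SLC2A1 had no match to these letters. Among 35116 RefSeq windows of 300 bases, 13.3% held TGACNNNGC and 21.4% held ACGTG. The amino acid response element TGATGNAA was held by 3.62%, and among the windows of these genes it occurred in that of SLC3A2 alone, on the minus strand beyond the printed stretch. The percentages are for single windows, and a gene whose window was picked from several for its matches would hold a match more often. A match describes the letters and not binding, and none of these elements was tested for a part in the differences below.

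Differences were tested with limma on log2(FPKM + 1), a scale that understates the change of low genes, for genes of at least 1 FPKM in 3 or more libraries. Calls needed an adjusted p under 0.05 together with a log2 difference of at least 1, which is 2-fold. Of the 123 solute carriers 100 were tested and 23 were too low. In HCC827_Er 23 were called higher, where 24.7% of the 5276 tested genes were, and 25 were called lower, where 19.7% were. Together 48 of 100 were called, against 44.4% of all tested genes. Their median log2 difference was -0.55, beside 0.43 for all tested genes, and 44 of 100 were positive, where 51.4% of all tested genes were. No tested carrier lay between SLC43A2 (-0.35) and SLC39A4 (0.32). A median can therefore jump across this gap when the share of positive genes moves a little, and the class medians below have the same limit. All 100 had an adjusted p under 0.05 in limma, as did 98.3% of tested genes, and 99 had no overlap between the lines, as did 97.1%, so neither count sets the carriers apart from a table in which nearly every gene differed. In RNA from many cells, fewer cells of a type and less RNA per cell cannot be told apart.

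The split between higher and lower depended on scaling. Median-ratio rescaling shifted log2 differences by -0.34, less for low genes, and gave 17 higher and 40 lower carriers. Of all tested genes 17.1% were then called higher and 31.7% lower. Rescaling by the library sums likewise shifted the differences by 0.25 and gave 31 and 16, where 34.6% and 15.0% of all tested genes were. The medians were then -0.83 beside 0.18 for all tested genes, and -0.34 beside 0.61. A pseudocount of 5, which shrinks the differences of low genes, left 19 of the 48 calls, and neither it nor the rescalings turned a called carrier. The uncalled zinc importer SLC39A4 changed sign to -0.02 under median-ratio rescaling. Near the threshold lay 6 uncalled carriers with an absolute difference of 0.9 to 1 and 8 called ones between 1 and 1.1.

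**Figure D1:**
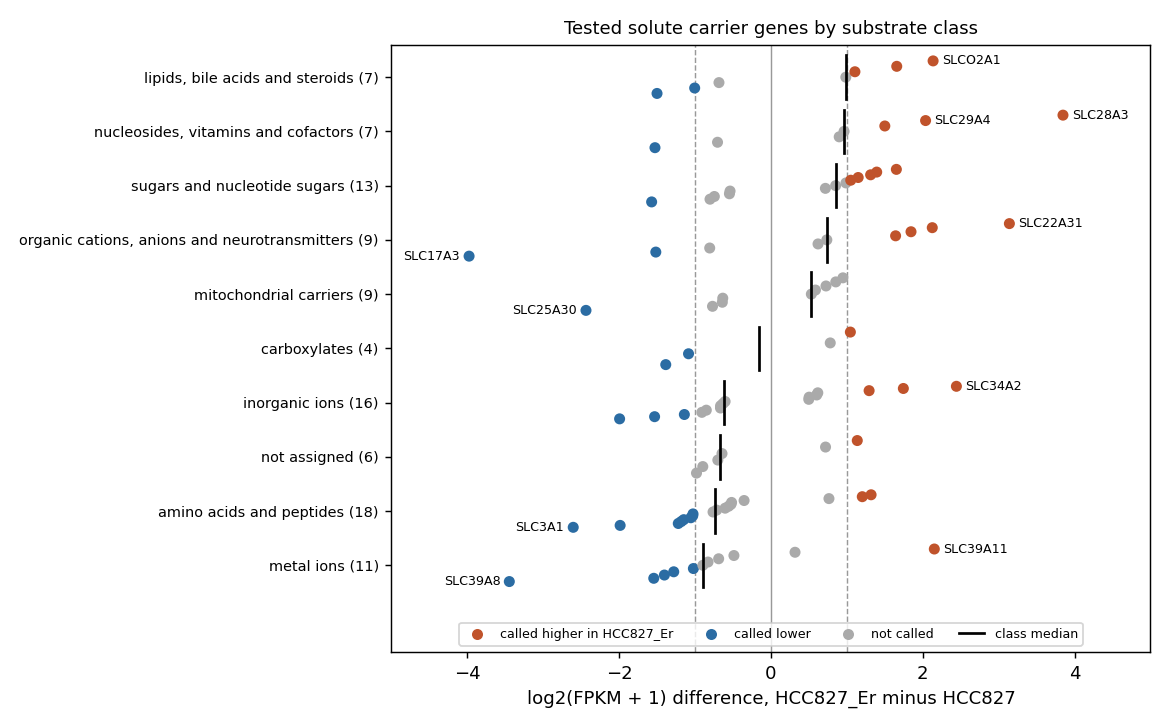
Log2(FPKM + 1) difference, HCC827_Er minus HCC827, of the 100 tested solute carriers by substrate class (number tested in brackets). Points are genes, red called higher, blue called lower, grey not called; black bars are class medians and dashed lines the 2-fold threshold. Class medians run from -0.90 for metal ions to 0.99 for lipids, bile acids and steroids.

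Amino acid and peptide carriers were mostly lower in HCC827_Er. Of 22 listed, 18 were tested, 8 were called lower (44.4%) and 2 higher (11.1%), with a median log2 difference of -0.74. Of all tested genes 19.7% were called lower and 24.7% higher, which is the background for every class described below. Median-ratio rescaling gave 10 lower and 1 higher, and sum rescaling 3 lower and 2 higher. All tested genes then had 31.7% lower and 17.1% higher with the first, and 15.0% and 34.6% with the other. These shares are the background of the rescaled counts of the other classes too, all of which are small. Those listed summed to 958 ± 16.9 FPKM in HCC827 and 527 ± 21.9 in HCC827_Er (SD, n = 3), a 1.82-fold difference. Most of both sums was SLC7A5 (437 and 214 on average) and its heavy chain SLC3A2 (330 and 161), so the sums mainly describe this pair.

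SLC7A5 (ENSG00000103257, chr16:87830023-87869488), the light chain of the large neutral amino acid transporter LAT1, was the most abundant of the listed amino acid carriers. It stood at 453, 420.05 and 439 FPKM in HCC827 and at 226, 212 and 202 in HCC827_Er. Every HCC827_Er library lay below every HCC827 library. The log2 difference was -1.03 (SE 0.056, limma adjusted p = 3.16e-07), close to the threshold, and the call was lost with sum rescaling (-0.78) and without HCC827_Er replicate 3 (-0.99). Its heavy chain SLC3A2 (ENSG00000168003, chr11:62856102-62888875), also known as CD98, stood at 333, 333 and 324 FPKM against 166, 160.3 and 158. The lines again did not overlap, and the difference was the same size, -1.03 (SE 0.045, limma adjusted p = 9.16e-08), with -0.78 and no call after sum rescaling. The ratio of SLC7A5 to SLC3A2 in FPKM was 1.26 to 1.36 in HCC827 and 1.28 to 1.36 in HCC827_Er, so both fell in proportion.

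Further plasma membrane carriers of neutral and cationic amino acids fell. SLC7A6, the y+LAT2 chain, which also pairs with SLC3A2 and exchanges cationic for neutral amino acids, fell from 31.9 ± 1.84 to 13.5 ± 1.38 FPKM (SD, n = 3; log2 difference -1.18, limma adjusted p = 2.78e-06; -0.95 and not called after sum rescaling). SLC7A6OS, which overlaps it on the opposite strand, had a difference of -0.53 and was not called, and whether the counting used strand is not given in the sources used here. SLC7A2, a cationic amino acid transporter, stood at 3.69 and 1.11 FPKM on average (log2 difference -1.15), and SLC43A1, the uniporter LAT3, at 3.16 and 1.01 (-1.06). Both lost their call with sum rescaling, at -0.99 and -0.90, and SLC43A1 also without HCC827_Er replicate 1 (-0.99).

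A second heavy chain and a pair of sodium-coupled carriers were under 1 FPKM in HCC827_Er. SLC3A1 (ENSG00000138079), the rBAT chain of the cystine transporter, stood at 6.07, 7.56 and 6.97 FPKM in HCC827 and at 0.49, 0.15 and 0.25 in HCC827_Er. All 3 HCC827_Er libraries were under 1 FPKM and all 3 HCC827 libraries above 6, with a log2 difference of -2.61 (SE 0.14, limma adjusted p = 2.68e-07). SLC6A20, a sodium-coupled proline transporter, stood at 4.67, 4.08 and 6.51 FPKM against 0.51, 0.41 and 0.63 (-1.99, SE 0.16, limma adjusted p = 3.53e-06), also without overlap. SLC38A4, a sodium-coupled neutral amino acid transporter, was at 1.2, 1.43 and 1.37 FPKM in HCC827 and listed at 0 in all HCC827_Er libraries.

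The 2 called higher were a glycine and a neutral amino acid carrier. SLC6A9, the glycine transporter GlyT1, rose from 4.63, 3.83 and 4.69 FPKM to 13.9, 11.5 and 11.9 (log2 difference 1.32, SE 0.12, limma adjusted p = 6.68e-06). SLC38A10 rose from 21.2, 16.4 and 17.8 FPKM to 46.8, 41.9 and 42.3 (1.2, SE 0.099, limma adjusted p = 4.34e-06), and was not called after median-ratio rescaling (0.87). Neither gene overlapped between the lines. The serine and alanine transporter SLC1A4 averaged 1.79 and 3.70 FPKM (0.76), and the glutamate transporter SLC1A1 9.34 and 6.04 (-0.56), and neither was called.

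Metal ion carriers were also mostly lower, with 5 of 11 tested called lower and 1 higher, a median of -0.90. Median-ratio rescaling gave 7 and 1, sum rescaling 4 and 1. Those listed summed to 703 ± 12.0 FPKM in HCC827 and 352 ± 10.1 in HCC827_Er (SD, n = 3), a 2.0-fold difference. Nearly all of it came from the SLC39 family of zinc importers (668 and 335 FPKM).

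SLC39A8 (ENSG00000138821, chr4:102251041-102431258), which carries zinc, manganese and cadmium into cells, changed most within this class. It stood at 124, 128 and 126 FPKM in HCC827 and at 9.13, 11.6 and 11.3 in HCC827_Er, 11.8-fold apart. No library came near the other line, and the log2 difference was -3.45 (SE 0.089, limma adjusted p = 5.23e-09). Its share of summed SLC39 FPKM was 18.2% to 19.4% in HCC827 and 2.69% to 3.48% in HCC827_Er. SLC39A11, a zinc importer of internal membranes, went the other way, from 9.84, 9.68 and 9.10 FPKM to 43.9, 46.4 and 47.3 (2.15, SE 0.072, limma adjusted p = 1.85e-08). Its share of the family was 1.37% to 1.47% in HCC827, against 13.6% and 14.6% in HCC827_Er replicates 2 and 3 and 13% in replicate 1, so the sum hid a change in which members made it up.

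SLC39A6, a zinc importer first described as an oestrogen-regulated gene, fell from 171, 168 and 161 FPKM to 58.9, 54.8 and 56.1 (-1.54, SE 0.053, limma adjusted p = 2.21e-08). SLC39A14, which takes up zinc, manganese and iron not bound to transferrin, fell from 60.9, 57.1 and 60.9 FPKM to 22.9, 25.7 and 23.4 (-1.28, SE 0.069, limma adjusted p = 3.01e-07). The lines did not overlap for either gene. SLC39A13, a Golgi zinc carrier, averaged 16.96 and 7.83 FPKM (-1.02), and lost its call after sum rescaling (-0.79), without HCC827 replicate 1 (-0.98) and without HCC827 replicate 3 (-0.99). SLC39A1, the most abundant of the listed SLC39 genes, averaged 226 and 127 FPKM (-0.83) and was not called, though it was after median-ratio rescaling (-1.17). SLC39A10 (-0.49) and SLC39A4 were not called either. SLC39A4 was the only tested carrier whose libraries overlapped, with 34.0, 36.2 and 30.8 FPKM in HCC827 and 48.4, 44.0 and 35.0 in HCC827_Er.

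The neighbouring copper carriers SLC31A1 and SLC31A2 lie 57425 bases apart on chromosome 9 and had differences of the same sign. SLC31A2 fell from 5.61, 5.93 and 7.25 FPKM to 1.88, 1.69 and 1.63 (-1.40, SE 0.12, limma adjusted p = 6.68e-06). SLC31A1, the main copper importer, averaged 29.1 and 15.1 FPKM (-0.90) and was not called, though it was after median-ratio rescaling (-1.22). The iron exporter SLC40A1 was too low to test, with at most 0.02 FPKM in HCC827 and 0.51, 0.97 and 0.50 in HCC827_Er.

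**Figure D2:**
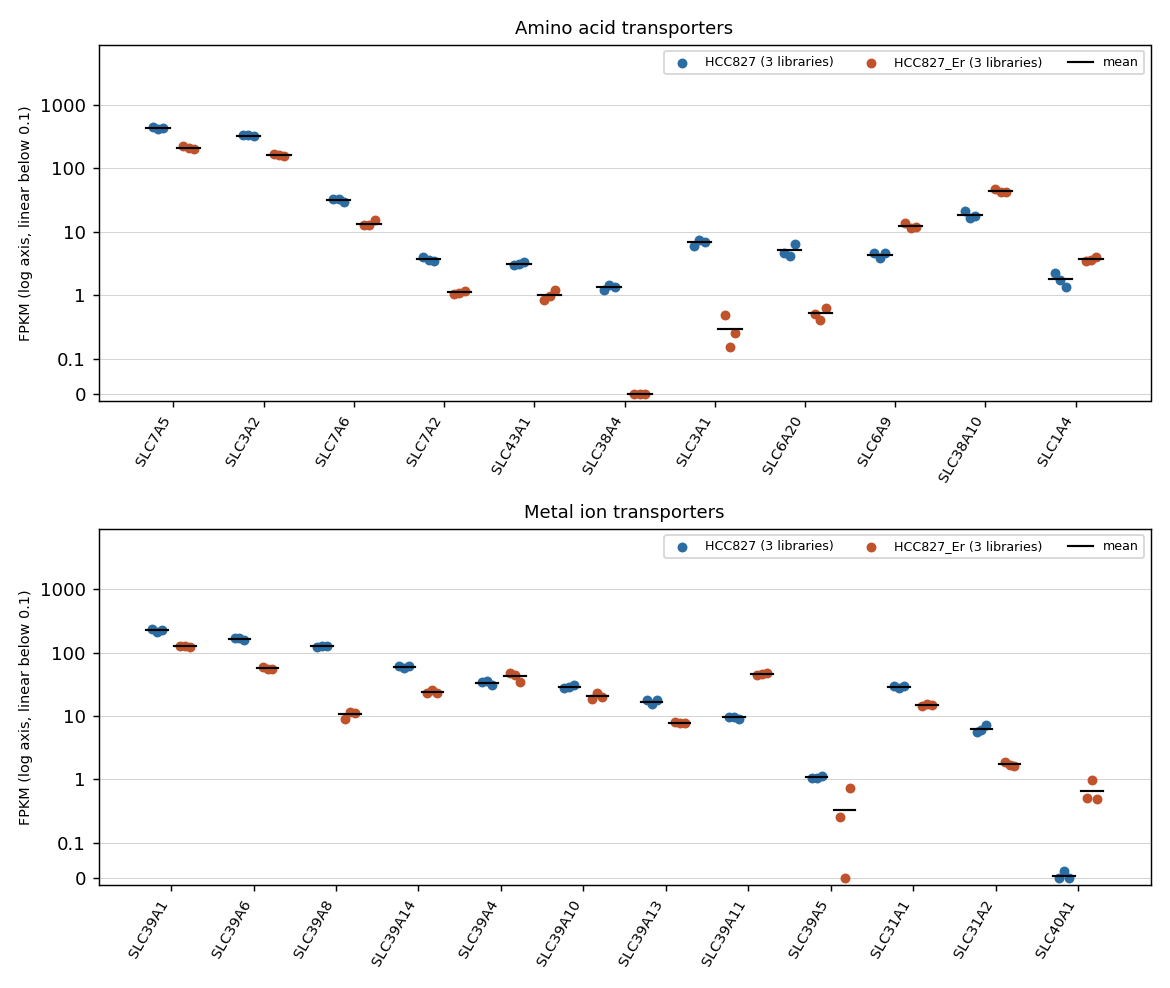
FPKM per library (log axis, linear below 0.1) of 11 amino acid carriers and 12 metal ion carriers; points are the 3 libraries of each line, black bars their mean. SLC39A8 sits between 124 and 128 in HCC827 and between 9.13 and 11.6 in HCC827_Er, while SLC39A11 shows the opposite order.

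Among sugar and nucleotide sugar carriers more were called higher than lower. Of 16 listed, 13 were tested, 5 were called higher and 1 lower, with a median of 0.85. Median-ratio rescaling gave 4 and 3, sum rescaling 7 and 1. SLC2A1 (ENSG00000117394, chr1:42925375-42959176), the glucose transporter GLUT1, rose from 82.8, 70.6 and 60.4 FPKM to 241, 175 and 156. The lines did not overlap, although the libraries of each line spread more than for most abundant carriers, and the log2 difference was 1.39 (SE 0.16, limma adjusted p = 4.04e-05). Summed FPKM of the 8 SLC2 genes kept here, without the gene that the selection sets aside, went from 87.2 ± 10.8 to 201 ± 46.1 (SD, n = 3). Most of this sum was SLC2A1.

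Less abundant sugar carriers rose too. The sodium and myo-inositol transporter SLC5A3 went from 2.23, 2.53 and 2.15 FPKM to 6.61, 7.83 and 7.19 (1.31, SE 0.11, limma adjusted p = 5.76e-06). SLC2A10 averaged 0.23 and 2.87 FPKM, SLC2A12 0.063 and 1.36, and the urate carrier SLC2A9 0.21 and 1.51, so each was called from levels under 1 FPKM in HCC827. The call of SLC2A9 was lost after median-ratio rescaling (0.92) and without HCC827_Er replicate 3 (0.99). SLC2A6, a hexose carrier of lysosomes, was the only member of the class called lower, from 12.8, 13.4 and 13.6 FPKM to 5.35, 3.39 and 2.96 (-1.57, SE 0.17, limma adjusted p = 2.33e-05). Fructose carrier SLC2A5 and the liver-type SLC2A2 were too low to test, SLC2A2 being listed at 0 in all HCC827_Er libraries. The UDP-galactose carrier SLC35A2 (0.72) and the sugar phosphate carrier SLC37A1 (0.85) were not called, though the latter was after sum rescaling (1.08).

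Among carboxylate carriers, 1 of 4 tested was called higher and 2 lower, with a median of -0.15. Median-ratio rescaling gave 0 and 2, sum rescaling 2 and 1. SLC16A3 (ENSG00000141526, chr17:82228397-82261129), the lactate exporter MCT4, stood at 196, 159 and 146 FPKM in HCC827 and 357, 262 and 248 in HCC827_Er. The lines did not overlap, but the log2 difference of 0.78 (SE 0.15, limma adjusted p = 8.26e-04) was under the threshold, and sum rescaling gave a call. As with SLC2A1, replicate 1 of each line was the highest. SLC16A7, the pyruvate and lactate carrier MCT2, fell from 6.66, 6.95 and 7.68 FPKM to 2.30, 1.98 and 2.01 (-1.39, SE 0.11, limma adjusted p = 3.60e-06). SLC13A3, a sodium-coupled dicarboxylate carrier, averaged 1.71 and 0.27 FPKM (-1.09), and SLC16A8, the lactate carrier MCT3, 0.35 and 1.77 (1.05). SLC13A3 lost its call after sum rescaling and without HCC827 replicate 3 (both -0.98). SLC16A8 lost it after median-ratio rescaling (0.90), without HCC827 replicate 2 (0.88), and without HCC827_Er replicate 2 (0.99) or 3 (0.94).

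**Figure D3:**
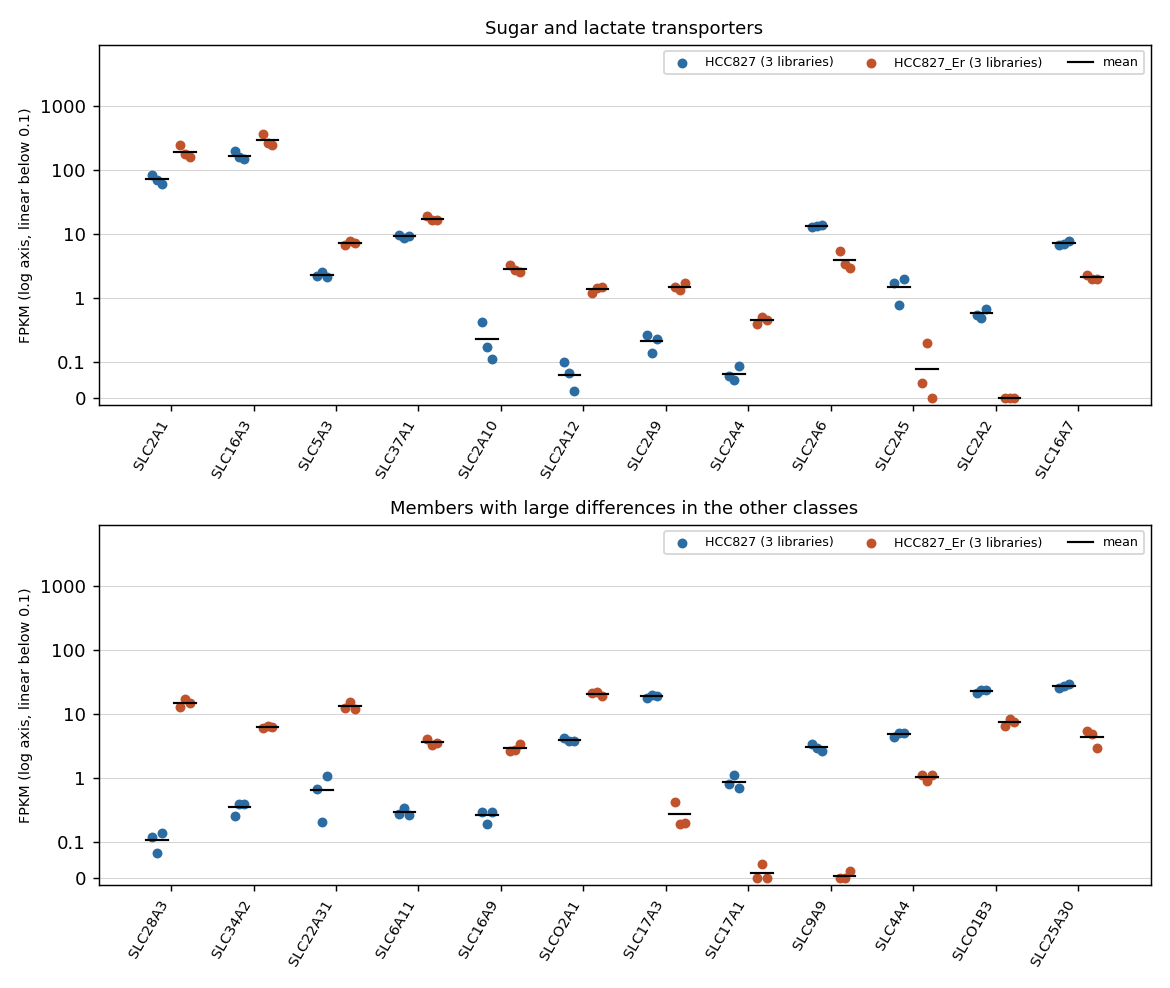
FPKM per library (log axis, linear below 0.1) of 12 sugar and lactate carriers and of 12 carriers with large differences in other classes; points are the 3 libraries of each line, black bars their mean. SLC28A3 sits at or below 0.14 in HCC827 and at or above 12.8 in HCC827_Er, and SLC17A3 shows the opposite order.

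Carriers of nucleosides, vitamins and cofactors had 3 of 7 tested called higher and 1 lower, with a median of 0.96. Median-ratio rescaling gave 3 and 2, sum rescaling 5 and 1. SLC28A3 (ENSG00000197506, chr9:84275457-84340683), a sodium-coupled nucleoside transporter that also takes up nucleoside drugs, had the largest positive difference of all tested carriers. It was at 0.12, 0.07 and 0.14 FPKM in HCC827 and at 12.8, 17.4 and 15.0 in HCC827_Er. The log2 difference was 3.85 (SE 0.13, limma adjusted p = 2.10e-08). SLC29A4, which carries adenosine and monoamines, rose from 1.53, 1.83 and 1.32 FPKM to 11.1, 8.11 and 9.42 (2.04, SE 0.14, limma adjusted p = 1.43e-06). The choline-transporter-like gene SLC44A5 rose from 4.02, 4.08 and 4.34 FPKM to 12.3, 13.7 and 14.8 (1.5, SE 0.10, limma adjusted p = 1.42e-06), while its relative SLC44A1 differed 2.01-fold in mean FPKM (0.96 on the log2 scale) and was not called, though it was after sum rescaling (1.2). The vitamin C transporter SLC23A1 fell from 3.33, 3.72 and 1.69 FPKM to 0.75, 0.15 and 0.14 (-1.53, limma adjusted p = 2.72e-04).

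Organic cation, anion and neurotransmitter carriers held the largest changes in both directions beside SLC28A3, with 4 of 9 tested called higher and 2 lower and a median of 0.74. Median-ratio rescaling gave 4 and 3, sum rescaling 4 and 2. SLC17A3 (ENSG00000124564, chr6:25833066-25882286), a urate and organic anion exporter known from kidney, stood at 17.7, 20.01 and 19.3 FPKM in HCC827 and 0.43, 0.19 and 0.20 in HCC827_Er. This was the largest negative difference of the tested carriers, -3.98 (SE 0.12, limma adjusted p = 1.11e-08). Its neighbour SLC17A1, 1007 bases away, was too low to test, with 0.70 to 1.11 FPKM in HCC827 and at most 0.04 in HCC827_Er. SLC22A31 rose from 0.69, 0.21 and 1.09 FPKM to 12.6, 15.4 and 12.1 (3.14, SE 0.20, limma adjusted p = 8.63e-07).

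The GABA transporter SLC6A11 averaged 0.30 and 3.67 FPKM (1.85), and SLC16A9, a carnitine and creatine carrier, 0.26 and 2.95 (1.64). In both genes the lines did not overlap. SLC16A12, a creatine carrier, averaged 3.23 ± 1.63 and 0.41 ± 0.047 FPKM (SD, n = 3; -1.52), with HCC827 replicate 3 at 5.11 above the other 2.

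Inorganic ion carriers were split, with 3 of 16 tested called higher and 3 lower and a median of -0.62. Each count is 18.8%, beside the 24.7% called higher and 19.7% called lower of all tested genes. Median-ratio rescaling gave 2 and 5, sum rescaling 3 and 2. SLC34A2 (ENSG00000157765, chr4:25648011-25678748), the sodium phosphate cotransporter of alveolar type II cells, rose from 0.26, 0.40 and 0.39 FPKM to 6.14, 6.48 and 6.38. The libraries of each line lay close together, and the log2 difference was 2.44 (SE 0.11, limma adjusted p = 8.70e-08). The lung markers NKX2-1 (5.93 and 65.7 FPKM on average) and SFTPB (0.21 and 39.6) were higher in the same libraries. SLC4A11, a borate-transporter-like proton and ammonia carrier, rose from 0.60, 0.90 and 1.36 FPKM to 8.76, 5.46 and 3.28, with a wide spread in HCC827_Er (1.74, SE 0.28). SLC9A7, a sodium and proton exchanger of the Golgi, rose from 7.31, 8.25 and 5.92 FPKM to 18.7, 19.6 and 18.3 (1.29, SE 0.12, limma adjusted p = 7.45e-06), and had 0.98 and no call after median-ratio rescaling.

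Those that fell were a bicarbonate, an anion and a proton carrier. SLC4A4, the sodium bicarbonate cotransporter NBCe1, fell from 4.47, 5.08 and 5.16 FPKM to 1.11, 0.90 and 1.11 (-1.53, SE 0.11, limma adjusted p = 2.14e-06). SLC9A9, an endosomal sodium and proton exchanger, was at 3.41, 2.96 and 2.69 FPKM in HCC827 and listed at 0 in 2 HCC827_Er libraries and at 0.02 in the third (-1.99, limma adjusted p = 2.91e-07). The sulfate carrier SLC26A1 averaged 5.03 and 1.87 FPKM (-1.14), with HCC827_Er replicate 3 at 3.18 above the other 2, and lost its call after sum rescaling and without HCC827_Er replicate 2 (both -0.96). Chloride cotransporters were not called: SLC12A2, which brings sodium, potassium and chloride in, averaged 3.00 and 4.64 FPKM (0.50), and SLC12A7, a potassium chloride exporter, 37.5 and 19.5 (-0.91), the latter called lower after median-ratio rescaling (-1.24).

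Lipid, bile acid and steroid carriers had 3 of 7 tested called higher and 2 lower, with a median of 0.99. Median-ratio rescaling gave 2 and 3, sum rescaling 4 and 1. SLCO2A1 (ENSG00000174640, chr3:133928145-134052184), the prostaglandin transporter, rose from 4.27, 3.87 and 3.81 FPKM to 21.6, 22.1 and 19.1 (2.14, SE 0.097, limma adjusted p = 1.14e-07). SLC27A2, a fatty acid transport protein with acyl-CoA synthetase activity, rose from 1.58, 1.07 and 2.35 FPKM to 6.96, 7.26 and 7.53 (1.66, SE 0.17, limma adjusted p = 1.87e-05). Its relative SLC27A1 averaged 3.00 and 7.65 FPKM (1.11; 0.83 and not called after median-ratio rescaling), while SLC27A3 (0.99) and SLC27A4 (-0.69) were not called, the first being called after sum rescaling (1.19) and the other after median-ratio rescaling (-1.003). SLCO1B3 (ENSG00000111700), a bile acid and drug importer known from liver, fell from 21.4, 23.6 and 23.7 FPKM to 6.44, 8.46 and 7.50 (-1.501, SE 0.11, limma adjusted p = 1.73e-06). It overlaps the readthrough SLCO1B3-SLCO1B7, so the split of fragments between these rows is uncertain. SLCO4C1 averaged 1.49 and 0.24 FPKM and sat at the threshold (-1.01), with -0.91 and no call after sum rescaling. It was also not called without HCC827_Er replicate 1 (-0.95) or 2 (-0.99), or without HCC827 replicate 1 (-0.996) or 3 (-0.97).

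Mitochondrial carriers had 0 of 9 tested called higher and 1 lower, although 5 of the 9 were positive with an adjusted p under 0.05 in limma, and their median was 0.53. Median-ratio rescaling gave 0 and 2, sum rescaling 2 and 1. The 11 listed summed to 468 ± 7.36 FPKM in HCC827 and 739 ± 14.3 in HCC827_Er (SD, n = 3). Most of this was SLC25A5, an ADP and ATP exchanger of the inner membrane, at 304, 298 and 288 FPKM against 578, 577 and 563. Its libraries did not overlap and its difference was precise but under the threshold (0.95, SE 0.043, limma adjusted p = 1.09e-07), and it was called after sum rescaling. SLC25A30, a relative of the uncoupling proteins also called KMCP1, fell from 25.8, 27.9 and 29.9 FPKM to 5.39, 4.96 and 2.96 (-2.44, SE 0.17, limma adjusted p = 1.70e-06). In the 6 carriers of no assigned substrate 1 was called, SLC49A3, which averaged 0.45 and 2.19 FPKM (1.14; 0.97 after median-ratio rescaling).

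**Figure D4:**
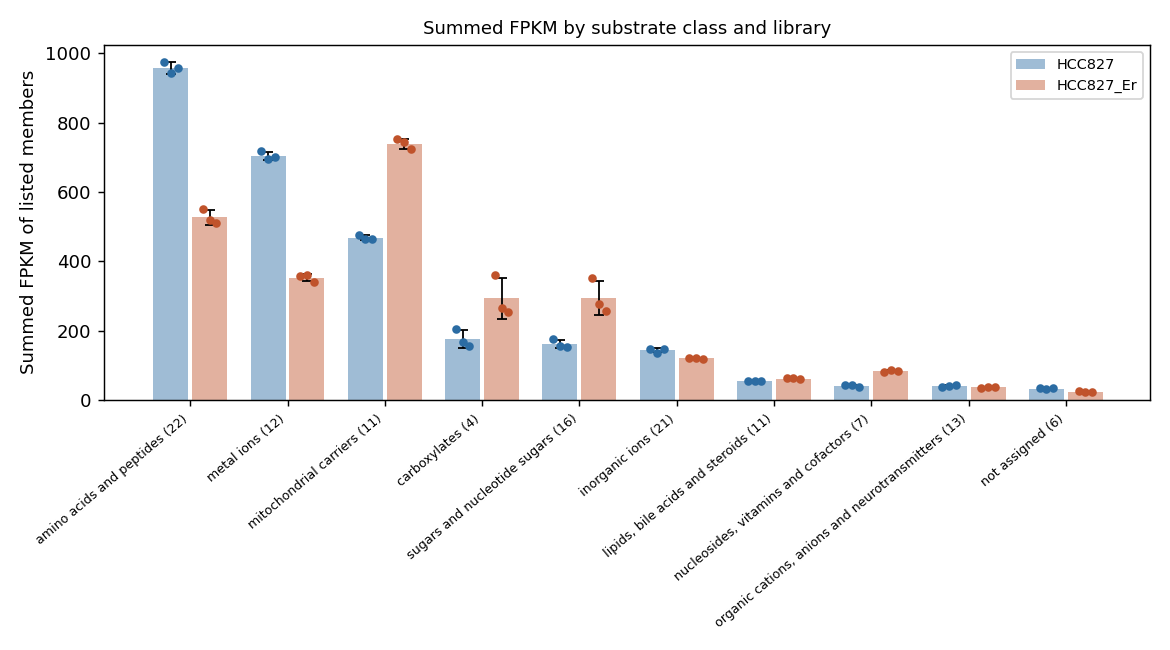
Summed FPKM of all listed members of each substrate class (number listed in brackets). Bars are means over the 3 libraries of a line, error bars the SD, points the libraries. Amino acid and metal ion carriers have the larger sum in HCC827, mitochondrial, carboxylate and sugar carriers in HCC827_Er.

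Summed over all 123 carriers, the FPKM was 2776 ± 74.6 in HCC827 and 2529 ± 149 in HCC827_Er (SD, n = 3). This is a 1.1-fold difference, while the class sums in the plot ran from 1.06-fold apart for organic cations, anions and neurotransmitters to 2.02-fold for nucleosides, vitamins and cofactors. Carboxylates summed to 176 ± 25.8 and 293 ± 59.4 FPKM, and sugars to 161 ± 12.3 and 294 ± 49.8. Most of the carboxylate sum was SLC16A3 (167 and 289 on average), which was not called. The largest part of the sugar sum was SLC2A1 (71.3 and 191). The 4 listed SLC22 organic ion carriers went from 4.62 to 19.3 FPKM, mostly through SLC22A31 (0.66 and 13.4). Of the 3 tested, 1 was called higher, and SLC22A15, too low to test, went the other way (1.08 and 0.12). Of the 8 carriers with a mean of at least 100 FPKM in either line 5 were called, SLC7A5, SLC3A2, SLC39A8, SLC39A6 and SLC2A1, and SLC25A5, SLC16A3 and SLC39A1 were not. A difference of 4-fold or more on the log2(FPKM + 1) scale was called for 7 higher and 4 lower of the 100 tested carriers, where 7.18% and 5.46% of all tested genes had it, so these counts were near the background.

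Some carriers were under 1 FPKM in a single line. A mean under 1 FPKM in HCC827 and at least 1 in HCC827_Er was found for 13 of 100 tested carriers, where 13.2% of tested genes had it. The reverse was found for 14, where 8.91% had it. The first set includes SLC28A3, SLC22A31 and SLC34A2, the other SLC17A3, SLC3A1, SLC6A20 and SLC9A9. A carrier that is tested because of its level in a single line must differ, so these counts describe the table.

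Position was read from GENCODE 29 on GRCh38. All 7 tested carriers on chromosome X had a positive difference, but so did 86.7% of the 270 tested X genes, and 2 of the 7, SLC9A7 among them, were called higher where 39.6% of X genes were. No X carrier was called lower, where 7.41% of X genes were. Of 10 pairs of listed carriers within 100 kb of each other, 9 had differences of the same sign. Some of these pairs overlap or include carriers too low to test, and the share among all neighbouring genes was not computed. The exception was SLC13A3 (-1.09) and SLC2A10 (1.65), which lie 25020 bases apart on chromosome 20.

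Genes that work with the transporters were taken from lists of 100 names, of which 42 were in the table, 38 were tested, 14 were called lower and 8 higher, where 19.7% and 24.7% of all tested genes were. These shares are also the background of the counts for single lists that follow, which are small. Among partners and scaffolds 5 of 8 were lower and 1 higher. CLTRN (collectrin), which helps amino acid carriers of the SLC6 family reach the surface, fell from 17.3 to 3.80 FPKM on average (-1.94). Of the called SLC6 genes SLC6A20 fell (-1.99), while SLC6A9 (1.32) and SLC6A11 (1.85) rose. PDZK1, a scaffold that holds SLC17, SLC22 and SLC34 carriers at the apical membrane, was at 63.9, 61.8 and 63.2 FPKM against 1.94, 2.17 and 1.02 (-4.59, limma adjusted p = 2.21e-08). Of the called members of these families SLC17A3 fell (-3.98), while SLC22A31 (3.14) and SLC34A2 (2.44) rose. Its binding partner PDZK1IP1 averaged 1600 and 655 FPKM (-1.29), and the scaffold NHERF2 22.3 and 49.6 (1.12; 0.79 and not called after median-ratio rescaling). Basigin (BSG), the escort of SLC16A3, averaged 447 and 257 FPKM (-0.79) and was not called, though it was called lower after median-ratio rescaling (-1.14). CD44, a hyaluronan receptor on the partner list, averaged 460.5 and 201 FPKM (-1.19; -0.94 and not called after sum rescaling).

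The other lists stand beside the classes they serve. Of the amino acid stress response genes, a programme known to include SLC7A5 and SLC3A2, 3 of 6 tested were called lower, beside the 19.7% of all tested genes. ATF3 fell from 71.1, 55.2 and 66.5 FPKM to 6.78, 10.5 and 6.89 (-2.87), and DDIT3 from 40.5 to 16.6 on average (-1.24; -0.999 and not called after sum rescaling). VLDLR also fell (-1.12; -0.88 and not called after sum rescaling), so ATF3 alone kept its call there. CHAC1 (-0.997), TRIB3 (-0.62) and SESN2 (-0.49) were not called, though CHAC1 was called lower after median-ratio rescaling (-1.31). Glutamine synthetase GLUL fell from 45.9 to 17.6 FPKM (-1.34), and GCLC, the catalytic subunit of glutathione synthesis, rose from 13.1 to 35.9 (1.38).

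Beside the metal carriers, 2 of 4 tested metal-binding genes were higher and 1 lower. Ceruloplasmin (CP), a copper ferroxidase, rose from 7.98 to 58.8 FPKM (2.75) and the metallothionein MT1A from 17.4 to 82.7 (2.23), a family whose near-identical copies can share reads. Ferritin light chain FTL fell from 1568 to 610.0 FPKM (-1.36). Carbonic anhydrase CA2, which supplies bicarbonate to carriers such as SLC4A4, fell from 41.0, 36.7 and 36.2 FPKM to 0.08, 0 and 0. The other listed member of its family, CA11, rose from 0.80, 0.76 and 4.90 FPKM to 12.5, 8.76 and 7 (1.94, SE 0.44, limma adjusted p = 2.22e-03).

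Of the sodium pump subunits, whose gradient drives the coupled carriers, FXYD2 fell from 92.1 to 2.35 FPKM (-4.86) and FXYD3 was listed at 0 in HCC827 and at 10.6, 8.84 and 7.04 in HCC827_Er. Among bile acid and fatty acid genes 2 of 6 were higher and 2 lower. The bile acid receptor NR1H4 fell from 42.8 to 0.093 FPKM (-5.32), beside SLCO1B3, and the acyl-CoA synthetase ACSL1 rose from 5.62 to 27.8 (2.12), beside SLC27A2.

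**Figure D5:**
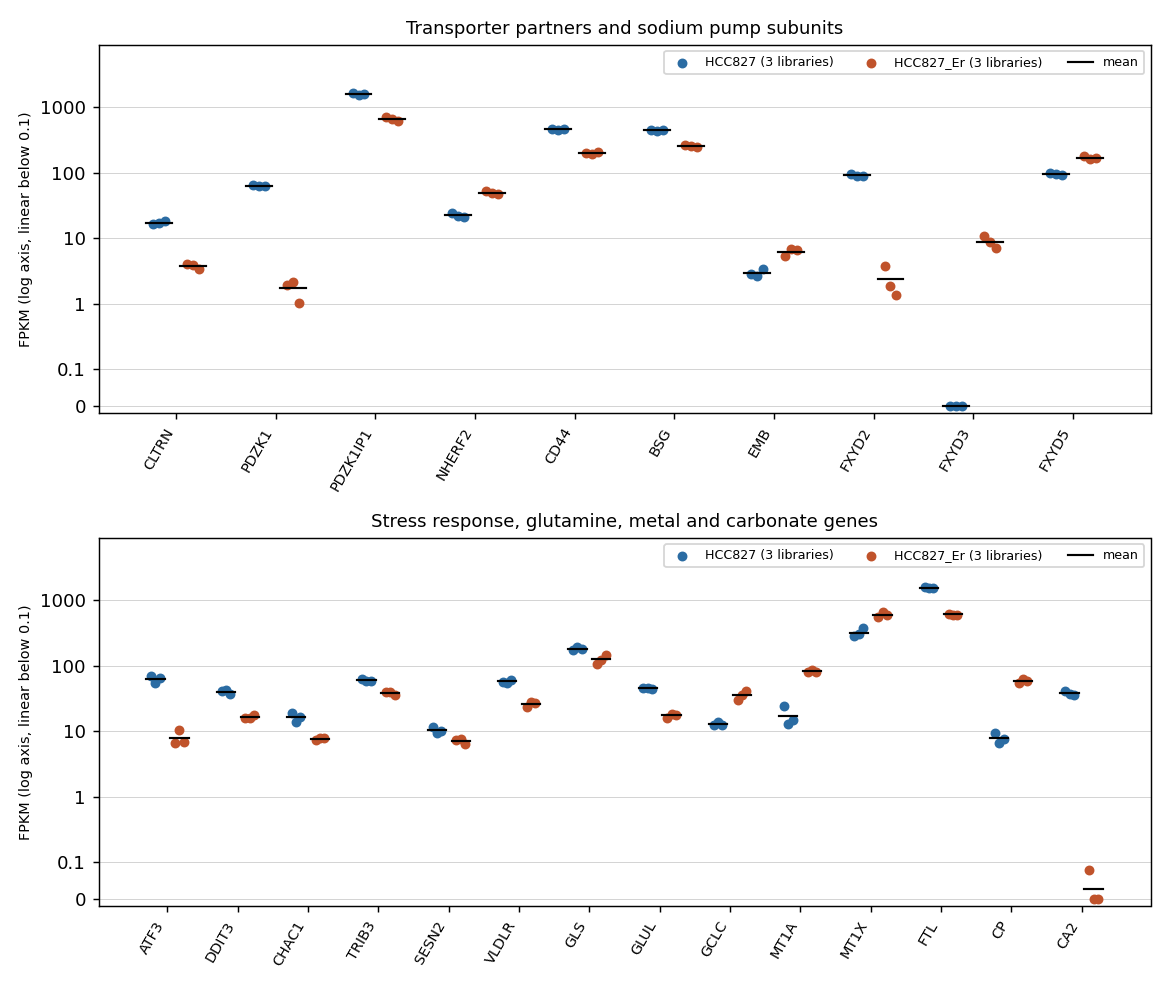
FPKM per library (log axis, linear below 0.1) of 10 transporter partners and sodium pump subunits and of 14 genes of the stress response, glutamine, metal and carbonate lists; points are the 3 libraries of each line, black bars their mean. PDZK1, FXYD2 and CA2 lie above 20 FPKM in HCC827 and below 4 in HCC827_Er.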

How the data were processed

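The libraries, 3 of HCC827 and 3 of HCC827_Er, were made from total RNA with a TruSeq kit, according to the labels' protocols. The deposited unit is FPKM per gene, computed by the authors. The submitters' processing notes list fastp, HISAT2 and StringTie as tools, and both GRCh38.p14 and hg19 as builds with no role attached. Tool versions, gene annotation and any selection of genes were not given in the sources used here. Values of this kind depend on what else is abundant in a library, so rescalings were tried.

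Symbols matched 6636 of 6641 identifiers. Gene type and position came from GENCODE 29 on GRCh38, promoters from RefSeq. FPKM was transformed to log2(FPKM + 1), and 5276 genes with at least 1 FPKM in 3 of 6 libraries entered limma (version 3.58.1, under R 4.3.3; lmFit, then eBayes using the trend), with Benjamini-Hochberg adjustment over all of them. An exact two-sided test of 3 against 3 libraries cannot go below 0.1, so genes were tested in the model alone. The steps were tested on simulated data.

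The members, substrate classes and lists were chosen with earlier results of these data known. Named genes were, per class, up to 4 called members in each direction with the largest difference, a mean of at least 5 FPKM in the higher line and no overlap. To these were added 18 fixed names, 10 of them in the table, and up to 2 called genes from each partner list. Other genes were named after their values were seen. Alternatives were pseudocounts of 0.1 and 5, no minimum and a minimum of 5 FPKM, median-ratio and sum rescaling, no trend, a replicate block and each library left out. Some genes that the rule or lists name are not reported here.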

Additional observations from a re-analysis of the deposited data

How the results depend on the processing

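Of the 48 called carriers, 48 kept their call with a pseudocount of 0.1, with no minimum, without the trend and with the replicate block, 45 to 47 with a library left out, 42 after median-ratio and 39 after sum rescaling, 28 with a minimum of 5 FPKM (66 carriers tested) and 19 with a pseudocount of 5. None turned direction in these settings, and 16 kept their call in the 13 settings other than the minimum of 5. A pseudocount of 5 shrinks the difference of low genes by construction, and a minimum of 5 removes them from the test.

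The 23 carriers called higher became 9 with a pseudocount of 5 and 14 with a minimum of 5, and the 25 called lower became 10 and 14, then 40 after median-ratio and 16 after sum rescaling. With a pseudocount of 5 the calls in either direction went from 10 to 4 for amino acids, 3 to 0 for carboxylates, 6 to 1 for inorganic ions, 5 to 2 for lipids, 6 to 2 for organic ions, 6 to 2 for sugars and 1 to 0 for unassigned carriers. With a minimum of 5 they went to 6, 1 and 2 for amino acids, carboxylates and inorganic ions, to 2 for organic ions, 3 for sugars and 0 for unassigned carriers. Sum rescaling left 5 amino acid calls and gave 3 mitochondrial calls, and median-ratio rescaling gave 2 mitochondrial and 3 unassigned calls. A pseudocount of 0.1 gave 4 unassigned calls. With each library left out in turn, mitochondrial and unassigned calls ranged from 1 to 2. Among the single genes followed, 630 values kept direction and call, 22 lost the call, 1 gained it and 0 reversed.

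Across all tested genes, deviations of same-numbered libraries correlated at only 0.11, -0.02 and 0.05. Single genes could still share an order: SLC2A1 and SLC16A3 fell from replicate 1 to replicate 3 in both lines. A replicate effect on such genes was not tested separately. With the replicate block 23 carriers were called higher and 25 lower.

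The files hold no counts, so depth is unknown and low values carry an unknown counting error. Results rest on 3 libraries a line and on a table in which most genes differed, so a carrier not in it was not analysed here.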
